A study of Mus musculus with 34 samples.

Results

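Contact of the immunoglobulin heavy chain locus Igh with the Mycn gene and its neighbours down to Smc6, Gen1 and Msgn1 was described in 2 mouse plasmacytomas, tumors of antibody-secreting cells. The region was taken as the 21 consecutive windows of 200 kb from 10 to 14.2 Mb of chromosome 12 (mouse build mm9, chr12:10000001-14200000), of 12836 windows in all. It was chosen on the read counts, the detected fragments and the reads per detected fragment of these same 4 libraries, so those values, fold changes and calls included, are given as a description and are evidence of nothing beyond it. Circular chromosome conformation capture (4C) was used, in which DNA held close together in the nucleus is cut with HindIII, ligated and read from a chosen bait, here in Igh. A read therefore reports a ligation between the bait and a HindIII fragment elsewhere in the genome. Many reads can be copies of the same ligation, so read totals are not counts of ligations. The libraries came from TEPC1165 (2 libraries, strain Balb/c, with no genotype given) and PCT4961 (2 libraries, strain Balb/c, genotype AID-/- BclXL), both without a stated treatment or age. Each tumor is 1 case, so tumor and genotype cannot be told apart. The labels name no normal cell in the 4C set, so each tumor is the only comparison for the other. The other 30 of the 34 samples of the series were not used here.

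Mycn encodes a growth-promoting transcription factor, a relative of Myc. In plasma cell and B cell tumors a gene of the Myc family is often driven by Igh control elements after a rearrangement, and Igh lies near the opposite end of chromosome 12 from Mycn. Of the protein-coding genes below Mycn, Cyria encodes a regulator of actin remodelling, and Rad51ap2 is the next gene. Vsnl1 encodes a neuronal calcium sensor. Smc6 encodes a subunit of a chromosome maintenance complex, Gen1 a resolvase of recombination junctions and Msgn1 a transcription factor of early mesoderm. Towards higher coordinates the next genes are Ddx1, an RNA helicase, and Nbas, a factor of Golgi-to-ER transport. This order is that of RefSeq in GRCm38. In mm9 Mycn lies in the window chr12:12800001-13000000 and Smc6 and Gen1 lie near 11.2 Mb, where the window chr12:11200001-11400000 begins. That window is called the Smc6 and Gen1 window, though the exact mm9 place of these genes was not checked. The windows of the other genes were not placed, since the gene table used is of another build.

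RefSeq's GRCm38.p6 table held the starts of Mycn, Rad51ap2, Vsnl1, Smc6, Gen1 and Msgn1. These 6 genes had 7 promoters of 300 bases (250 before and 50 after a start). Cyria, next to Mycn in the gene order, was not included. A HindIII site, AAGCTT on both strands, was found in 0 of these 7 promoters and in 7.45% of the 32851 promoters of the table. The stretches before the Mycn start and between the facing starts of Gen1 and Smc6 are shown. Mycn lies in the highest window of the region, and Smc6 and Gen1 lie near its peak at 11.2 Mb. The stretches themselves were not converted to mm9, so their windows were not placed. No letters are in capitals, since neither holds the HindIII site. The Mycn stretch is chr12:12941837-12942086 on the minus strand (250 bases, 54.8% G and C), and the Gen1 to Smc6 stretch is chr12:11265808-11265885 on the plus strand (78 bases, 66.7% G and C), both in GRCm38.p6.
Mycn: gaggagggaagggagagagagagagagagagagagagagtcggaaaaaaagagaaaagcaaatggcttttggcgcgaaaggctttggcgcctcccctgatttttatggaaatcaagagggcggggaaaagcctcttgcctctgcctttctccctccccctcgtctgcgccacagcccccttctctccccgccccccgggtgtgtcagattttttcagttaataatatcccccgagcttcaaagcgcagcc
Gen1-Smc6: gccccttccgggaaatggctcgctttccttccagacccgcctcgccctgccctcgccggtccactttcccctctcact
These are reference bases and not those of the tumors. Reads were deposited per window, so no read can be assigned to the fragment that holds either stretch.

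The 4 libraries held 1668589 to 2178689 reads, of which 62.7% to 91.8% lay outside the 11 windows within 1 Mb of the bait window (chr12:114400001-114600000). These windows are called the bait region, and shares below are of the reads outside it. On the log scale, libraries with the same number resembled each other across tumors. Over the 12825 windows outside the bait region, Pearson's r of log2(reads + 1) was 0.69 for number 1 and 0.68 for number 2. Replicates of PCT4961 reached 0.37 and those of TEPC1165 0.27. On reads without the log the order was reversed. Replicates of each tumor had r = 0.99, and libraries of the same number across tumors 0.092 and 0.081. Over the 21 windows of the region, r of log2(reads + 1) lay between 0.81 and 0.91 for every pair of libraries. Windows are not independent, and libraries of the same number may share a run or an index, which the labels do not state. In the highest window outside chromosome 12, chr15:61800001-62000000, PCT4961 had 4.42% and 4.39% of the reads of the TEPC1165 library of the same number. The low TEPC1165 values of the Mycn region are of a similar or smaller order, and the part that sharing between libraries has in them was not tested.

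Over the 21 windows PCT4961 had far more reads than TEPC1165, on moderately more fragments. The region held 280540 and 386535 reads in PCT4961 and 6452 and 5978 in TEPC1165. For PCT4961 this was 27.5% ± 1.07 of the reads, for TEPC1165 0.376% ± 0.00635 (SD, n = 2 each), a log2 ratio of 6.19. The tumors were far apart, and the log2 ratio was 6.17 for number 1 and 6.22 for number 2. With the numbers crossed it was 6.14 and 6.25. On detected fragments, those with at least 1 read, in place of reads it was 0.34, from 255 and 270 of 1371 fragments in PCT4961 and 181 and 186 in TEPC1165. In 15 of the 21 windows the share of reads in both PCT4961 libraries was above both TEPC1165 libraries. This was so for 7.31% of all windows outside the bait region, but the region was selected on that contrast, so nothing is read from the comparison. Among the remaining 6 windows, 3 had no read in any library.

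**Figure D1:**
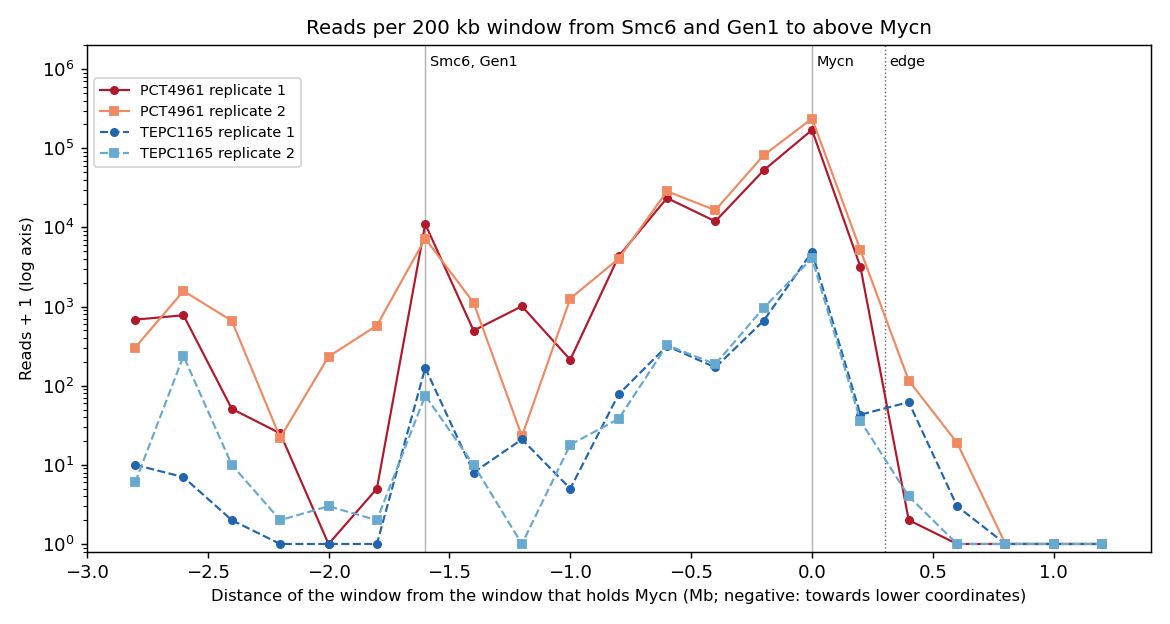
Reads per 200 kb window (y axis, reads + 1 on a log axis) against the distance of the window from the Mycn window (x axis, Mb) in the 2 PCT4961 libraries (solid lines) and the 2 TEPC1165 libraries (dashed lines). PCT4961 peaks at 170587 and 237211 reads in the Mycn window, falls to 1 and 115 reads 0.4 Mb above it, and has a separate peak of 11050 and 7231 reads 1.6 Mb below it.

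The window that holds Mycn was the highest of the whole table outside the bait region in both PCT4961 libraries. It had 170587 and 237211 reads in PCT4961 and 4908 and 4077 in TEPC1165. The groups did not overlap, and the share was 16.8% ± 0.765 for PCT4961 and 0.271% ± 0.0164 for TEPC1165 (SD, n = 2 each), a log2 ratio of 5.95. In PCT4961 51 and 52 of its 54 HindIII fragments were detected. These are 94.4% (95% Wilson interval 84.9% to 98.1%) and 96.3% (87.5% to 99.0%). TEPC1165 detected 41 and 45 fragments, 75.9% (63.1% to 85.4%) and 83.3% (71.3% to 90.98%). Detection thus differed far less than reads, but it cannot exceed the 54 fragments of the window, nearly all of which PCT4961 reached. The mean per detected fragment was 3345 and 4562 reads in PCT4961 and 119.7 and 90.6 in TEPC1165, and the spread over fragments is not known, since reads were deposited per window. In TEPC1165 the window still ranked 4 and 5 among the windows of chromosome 12 outside the bait region, in replicates 1 and 2.

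The 3 windows next below Mycn, on the side where Cyria follows in the gene order, had high contact in PCT4961 but no even decline. The adjacent window chr12:12600001-12800000 had 52711 and 81822 reads in PCT4961 and 662 and 962 in TEPC1165. The window chr12:12400001-12600000 had 11935 and 16505 reads against 169 and 186. The window chr12:12200001-12400000 had 23515 and 28645 reads against 317 and 324. The last of these was above the window at 12.4 Mb in all 4 libraries, so the profile dipped at 12.4 Mb and rose again at 12.2 Mb. As a percentage of the fragments of each window, though not by count, detection followed the order of the reads. The detected fragments were 47 and 49 of 57, then 34 and 41 of 67, then 50 and 50 of 72 in PCT4961. In TEPC1165 they were 40 and 38, then 22 and 28, then 29 and 31. Together with the Mycn window these windows held 92.2% and 94.2% of the PCT4961 reads of the region, and they ranked 1, 2, 4 and 5 on chromosome 12 outside the bait region in both PCT4961 libraries. The log2 ratios of the 3 windows lay between 6.76 and 6.80, above the 5.95 of the Mycn window. The Mycn window itself held 60.8% and 61.4% of the region's reads in PCT4961 and 76.1% and 68.2% in TEPC1165, with no overlap.

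**Figure D2:**
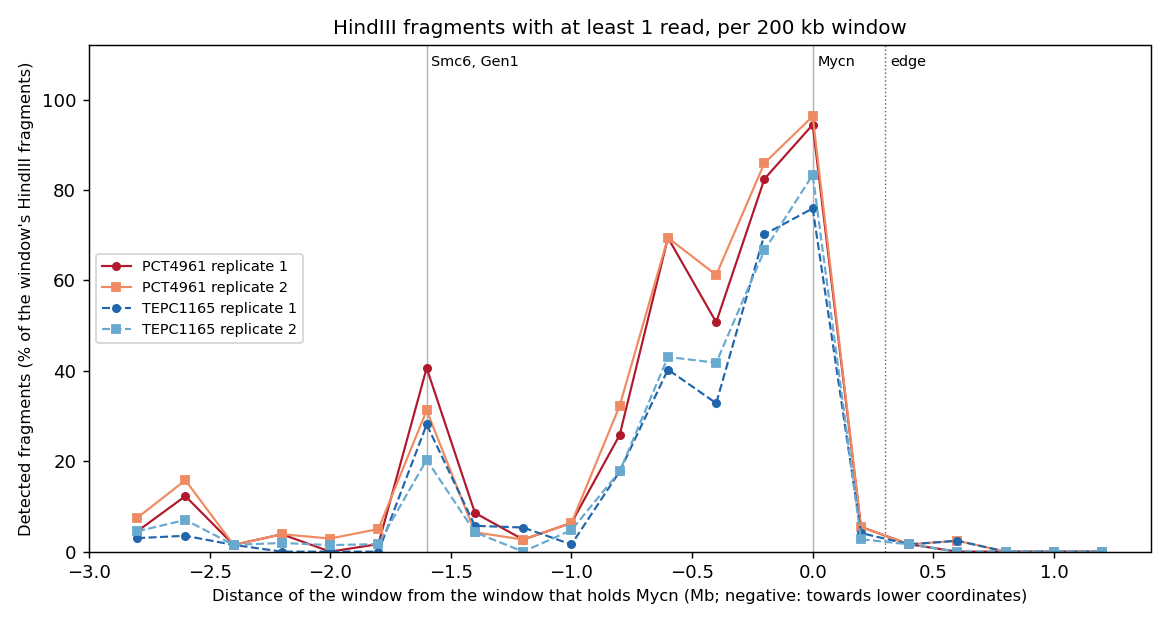
Detected HindIII fragments as a percentage of all HindIII fragments of each 200 kb window (y axis) against the distance from the Mycn window (x axis, Mb), 1 point per library. Both tumors are highest at Mycn, are higher 0.6 Mb below it than 0.4 Mb below it, and have a separate peak at Smc6 and Gen1. The values are 94.4% and 96.3% in PCT4961 and 75.9% and 83.3% in TEPC1165 at Mycn, and 40.6% and 31.2% against 28.1% and 20.3% at Smc6 and Gen1.

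Lower still, contact fell away before 11.4 Mb. The window chr12:12000001-12200000 had 4307 and 4025 reads in PCT4961 and 77 and 37 in TEPC1165, on 16 and 20 against 11 and 11 of 62 fragments. The 3 windows from 11.4 to 12 Mb, just above the Smc6 and Gen1 window, together had 1717 and 2403 reads in PCT4961 and 31 and 26 in TEPC1165. On this side Vsnl1 and Rad51ap2 follow Smc6 in the gene order. Only 12 and 9 of their 208 fragments were detected in PCT4961, 5.77% and 4.33%, and 9 and 6 in TEPC1165. Single windows here differed widely between libraries of a tumor. The window chr12:11600001-11800000 had 1009 reads in PCT4961 replicate 1 and 22 in replicate 2, each on 2 of 75 fragments.

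At 11.2 Mb, near Smc6 and Gen1 and next to Msgn1 in the gene order, contact rose again, apart from the high windows near Mycn. The window chr12:11200001-11400000 had 11050 and 7231 reads in PCT4961 and 167 and 74 in TEPC1165, with no overlap. Its share was 0.792% ± 0.371 for PCT4961 and 0.00717% ± 0.00347 for TEPC1165 (SD, n = 2 each), a log2 ratio of 6.79. The window below it, chr12:11000001-11200000, had 4 and 575 reads in PCT4961 and 0 and 1 in TEPC1165. The window above it, chr12:11400001-11600000, had 496 and 1118 against 7 and 9. The peak was thus 44.2 times the mean of its neighbours in PCT4961 replicate 1 and 8.54 times in replicate 2, an uncertain size but the same direction. In TEPC1165 the ratios were 47.7 and 14.8, on mean neighbour counts of 3.50 and 5. It reached 6.48% and 3.05% of the Mycn window in PCT4961 and 3.40% and 1.82% in TEPC1165. In PCT4961 26 and 20 of its 64 fragments were detected, 40.6% (95% Wilson interval 29.5% to 52.9%) and 31.2% (21.2% to 43.4%), against 18 and 13 in TEPC1165. The mean per detected fragment was 425 and 362 reads in PCT4961, against 470 and 573 in the window at 12.2 Mb. On chromosome 12 outside the bait region the window ranked 6 and 12 in the PCT4961 libraries.

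**Figure D3:**
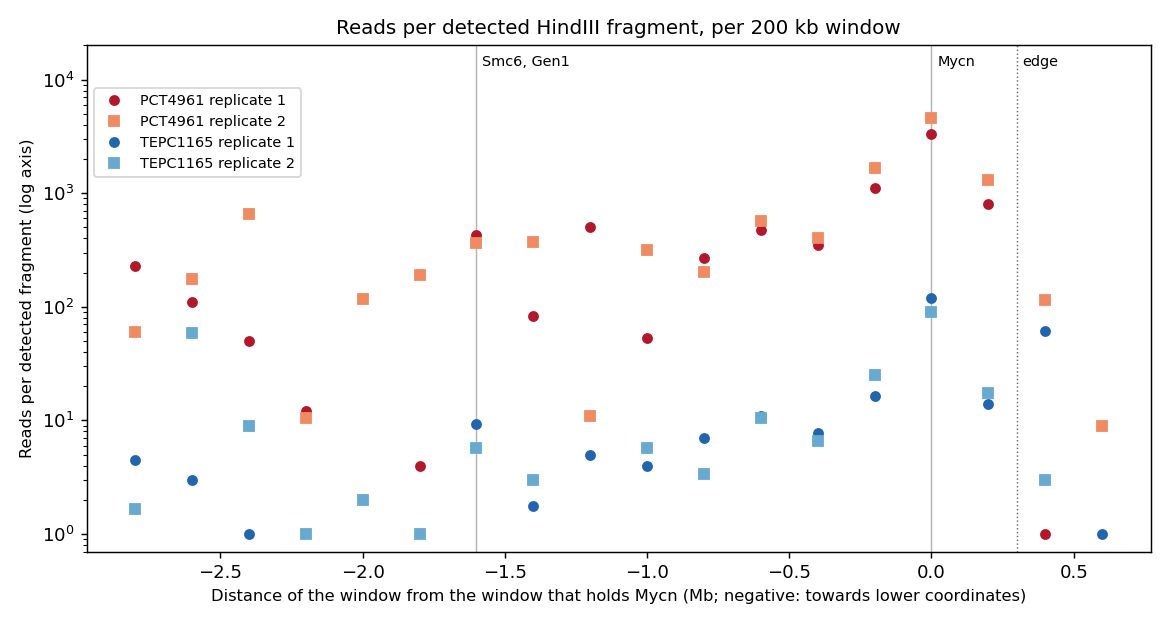
Mean reads per detected HindIII fragment (y axis, log axis) in each 200 kb window against the distance from the Mycn window (x axis, Mb), 1 point per library with at least 1 detected fragment. The window just above Mycn, with 795 and 1300 reads per detected fragment in PCT4961, stands near the window just below Mycn (1122 and 1670), while the PCT4961 values beyond the dotted edge are 1, 115 and 9.

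Above Mycn, towards Ddx1 and Nbas, contact in PCT4961 ended within 0.4 Mb. The window chr12:13000001-13200000 had 3181 and 5198 reads in PCT4961 and 42 and 35 in TEPC1165. In PCT4961 these reads lay on 4 and 4 of its 73 fragments (5.48%, 95% Wilson interval 2.15% to 13.3%), a mean of 795 and 1300 reads per detected fragment. These means were of the order of the window just below Mycn, 1122 and 1670, while the detected share was far below its 82.5% and 86.0%. The next window, chr12:13200001-13400000, had 1 and 115 reads in PCT4961 and 61 and 3 in TEPC1165, each library on 1 of 62 fragments, and the tumors overlapped. From 13.4 to 13.6 Mb there were 0 and 18 reads in PCT4961 and 2 and 0 in TEPC1165. From 13.6 to 14.2 Mb all 4 libraries had 0 reads on 197 fragments, which allows up to 3 reads, or 0.000286% in the shallowest library outside the bait region. Of the PCT4961 reads of the region, 0.000356% and 0.0344% lay above 13.2 Mb. In TEPC1165 it was 0.976% and 0.0502%, on 63 and 3 reads. TEPC1165 replicate 1 showed no fall at 13.2 Mb, with 42 reads in the window below and 61 in the window above. The run of windows with 0 reads in all libraries went on to 14.8 Mb (6 windows). Such windows are common, at 94 of 579 (16.2%) on chromosome 12 outside the bait region.

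At the low end, from 10 to 11 Mb towards Kcns3, Rdh14 and Nt5c1b, contact was sparse and uneven. The window chr12:10200001-10400000 was the highest there, with 776 and 1572 reads in PCT4961 and 6 and 236 in TEPC1165, on 7 and 9 against 2 and 4 of 57 fragments. TEPC1165 replicate 2 stood apart from replicate 1 in it, and its log2 ratio was 3.62. The window chr12:10000001-10200000 had 682 and 302 reads against 9 and 5. The 4 windows from 10.4 to 11.2 Mb summed to 78 and 1488 reads in PCT4961 and to 1 and 13 in TEPC1165, so almost all of their PCT4961 reads came from replicate 2. At the bounds of the region, the first window outside it at the low end (chr12:9800001-10000000) had 742 and 0 reads in PCT4961 and 10 and 0 in TEPC1165. At the high end the last window inside and the first outside had 0 reads in all libraries.

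Of the 13 windows with reads in all 4 libraries, 9 differed between replicates in the same direction in both tumors. The same count over the whole table was not made, so nothing is read from it. The log2 ratio of shares, replicate 2 over replicate 1, was −0.99 in PCT4961 and −1.03 in TEPC1165 in the Smc6 and Gen1 window. It was 2.19 and 2.23 in chr12:11800001-12000000, and 3.34 and 3.31 in chr12:10400001-10600000. These TEPC1165 values rest on 4 and 17 reads and on 1 and 9 reads. Some other windows of the same direction lay further apart. The ratios were 0.64 and 5.44 in chr12:10200001-10400000, and −1.56 and −0.70 in chr12:10000001-10200000. The windows of opposite direction were the Mycn window, with 0.093 and −0.12, and the window at 12.2 Mb, with −0.10 and 0.18. The others were the window at 13 Mb, with 0.33 and −0.12, and the window at 13.2 Mb, with 6.46 and −4.20 on few reads.

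**Figure D4:**
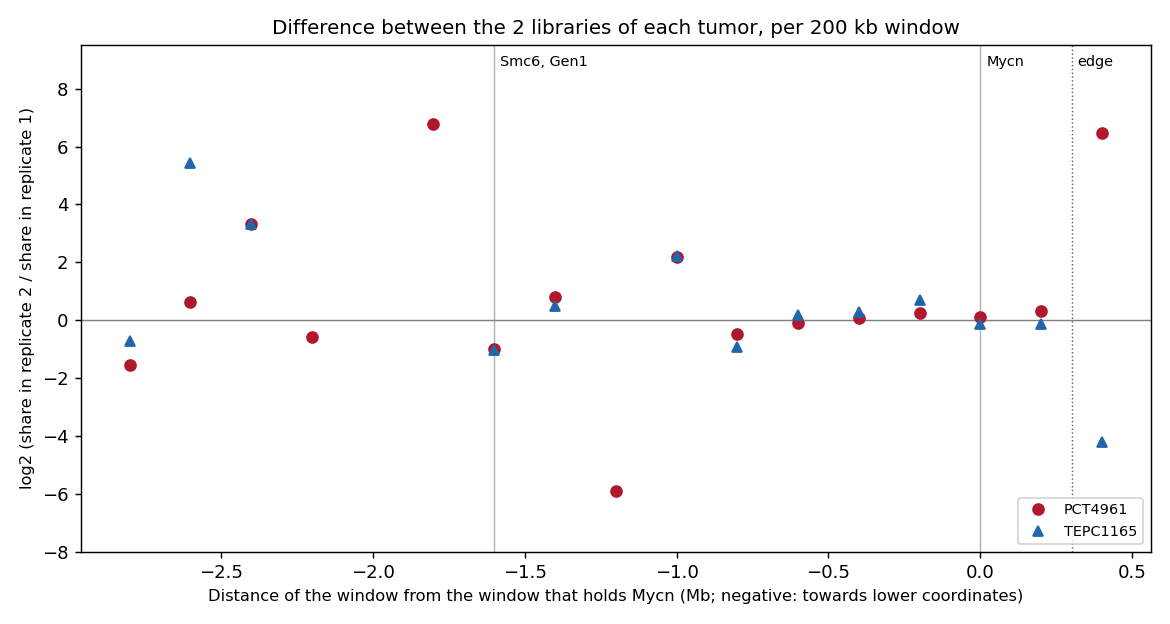
Log2 ratio of the share of reads in replicate 2 over replicate 1 (y axis) in each 200 kb window against the distance from the Mycn window (x axis, Mb), for PCT4961 (circles) and TEPC1165 (triangles), where both libraries of the tumor had reads. The points of both tumors nearly coincide at the Smc6 and Gen1 window (−0.99 and −1.03) and 1.0 Mb below Mycn (2.19 and 2.23). They lie between −0.12 and 0.68 from 0.6 Mb below Mycn to 0.2 Mb above it. The points are far apart 2.6 Mb below Mycn (0.64 and 5.44).

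In the 7 windows with at least 1000 reads in both PCT4961 libraries, TEPC1165 reads were given as a percentage of PCT4961 reads. They were 1.26% to 2.88% among the libraries numbered 1 and 0.673% to 1.72% among those numbered 2, with medians of 1.42% and 1.13%. These windows were taken for their high PCT4961 reads, so low percentages follow from the choice and nothing is read from them. The Mycn window had the highest value in both, 2.88% and 1.72%. How much of this is contact in TEPC1165 and how much is sharing between libraries was not tested.

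Against windows of chromosome 12 far below the bait, the region as a whole stood out in PCT4961 by reads and by detection, as its choice implies. This set leaves out the windows nearer the bait. Of 284 other windows more than 50 Mb below the bait window, the median had 1 and 1 reads in PCT4961, and the highest had 6295 and 11721, at 8.6 and 8.8 Mb. Over those windows 2.47% and 2.60% of the fragments were detected in PCT4961, and over the 21 windows 18.6% and 19.7%. In TEPC1165 these were 1.85% and 1.99% and, for the 21 windows, 13.2% and 13.6%. Reads per detected fragment over the 21 windows were 1266 ± 234 for PCT4961 and 33.9 ± 2.48 for TEPC1165 (SD, n = 2 each), and without the Mycn window the means were 612 and 12.3. Over all other windows outside the bait region they were 72.4 and 97.5 in PCT4961 and 177.0 and 180.6 in TEPC1165.

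The edgeR quasi-likelihood fit over the 3449 windows in which 2 or more libraries had at least 10 reads gave fold changes on a common scale. Of the 15 windows of the region in this fit, 7 passed the threshold as higher in PCT4961 and none as lower. The background was 0.348% of all windows called higher. The region was picked on these reads, so the choice sets this outcome: the count is no test, and nothing is read from it. The 7 were the window of Smc6 and Gen1 and all 6 from 12 to 13.2 Mb, of which those at 12 and 13 Mb were not called with a replicate block. Their log2 fold changes ran from 6.19 (SE 0.28) in the Mycn window to 7.48 (SE 1.51) in the window above it, with 6.84 (SE 1.03) for Smc6 and Gen1. The 8 windows not called had larger errors, such as 3.90 (SE 2.50) at 10.2 Mb and 1.89 (SE 4.16) at 13.2 Mb. The median log2 fold change was 6.84 over the 15 windows and −1.04 over all windows in the fit. Without PCT4961 replicate 2 edgeR called none of all 2390 windows tested, and DESeq2 as the test called none of 3449. At an unadjusted p under 0.05 these had 9 windows, 6 of them of the region, and 165 windows, 11 of them of the region.

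Outside the region and the bait region, 111 windows had a mean of at least 1000 PCT4961 reads, and 10 of them had a log2 ratio above the 5.95 of the Mycn window. The 3 nearest to it over the 4 libraries were chr12:117600001-117800000, with a log2 ratio of 5.92, chr12:119200001-119400000, with 6.09, and chr1:58200001-58400000, with 6.10. The first had 4816 and 6197 reads in PCT4961 and 102 and 145 in TEPC1165, and lies beyond the bait at the opposite end of the chromosome. The chromosome 1 window rested on 4 and 3 of 57 fragments in PCT4961.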

How the data were processed

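4C with HindIII and a bait in Igh was measured in 2 libraries each of TEPC1165 and PCT4961. Per the file headers, the authors deposited counts for 12836 windows of mm9: reads mapping to HindIII fragments, fragments detected by at least 1 read and all fragments. They are not normalized. How reads were aligned, where the bait lies and whether PCR copies were removed is not given in the sources used here. The highest window of chromosome 12 served as the bait window. The members and lists were chosen with earlier results of these data known.

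Shares, detection and ratios were computed in Python 3.11.15 (pandas 2.3.3, scipy 1.17.1). Log2 fold changes came from edgeR 4.0.16 in R 4.3.3 by the quasi-likelihood method, with TMM factors and tumor as the only term. Tests were two-sided, with Benjamini-Hochberg adjustment over all windows tested and a threshold of 0.05. The fit was also run on simulated independent counts, which lack the likeness of libraries with the same number. That run is no check of the calls on these data. SEs were taken from the fold change and its F value. DESeq2 1.42.0, a replicate block, other scalings, filters and measures, and leaving out each library were alternatives. Values in every library were printed for the windows in which both PCT4961 libraries had at least 1% of their Mycn window, for those beside the edge and for Smc6 and Gen1 with both neighbours. Windows with other features were added after their values were seen. Totals of 1668589 to 2178689 reads carry no molecular identifiers, so the floor of 3 counts covers counting error only and takes reads as independent. The 95% Wilson intervals take the fragments of a window as independent trials, which was not tested, and do not cover spread between libraries. Nothing in the labels tells whether replicate libraries came from separate material, so SDs and p-values cover library spread alone, possibly technical. Gene order and promoters came from RefSeq tables of GRCm38.p6.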

Additional observations from a re-analysis of the deposited data

How the results depend on the processing

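Each tumor had n = 2, and reads are not molecules. The 7 windows of the region called higher, of 12 among all windows, became 0 of 0 with DESeq2 as the test (11 of 165 at an unadjusted p under 0.05), 6 of 10 with DESeq2 size factors in edgeR, and 5 of 6 with at least 50 reads required. With a replicate block they were 5 of 7: the windows at 12 and 13 Mb lost the call. The count was 7 with the other scalings, with no filter and with 2 Mb around the bait left out (of 10 to 14 in all), and 0 to 7 with a library left out (of 0 to 35). In these repeats the 7 windows kept their sign, and the call was kept in 63 of 84. The median log2 fold change of all windows in the fit ran from −1.76 to 0.92 over the alternatives, and that of the region's windows from 6.08 to 8.20. Deviations of libraries with the same number correlated at r = 0.68 (3449 windows), though no label says that a number pairs them. Where 1 library of a tumor was left, its spread was taken from the remaining tumor.

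The log2 ratio of the region's share of 6.19 became 5.67 over all reads, 7.23 over reads outside chromosome 12, 6.27 with 2 Mb around the bait left out and 0.34 on detected fragments, and ran from 6.15 to 6.23 with a library left out. The crossed pairs, chosen after the data were seen, gave 6.14 and 6.25. The percentage of the region's PCT4961 reads above 13.2 Mb, 0.0174%, was 0.752% on detected fragments, 0.565% on reads per detected fragment and 1.26% with the edge at 13.0 Mb. The Mycn window's 61.1% of the region's reads was 64.3% per HindIII fragment, 19.6% on detected fragments and 41.9% on reads per detected fragment. The ratio of the Smc6 and Gen1 window to its neighbours, a mean of 26.4, was 7.05 on detected fragments, 5.54 on reads per detected fragment and 8.71 against the highest of 4 neighbours. The detected share of 19.1% was 34.1% from 11 to 13.2 Mb, and the 1266 reads per detected fragment were 612 without the Mycn window. The cause of these changes was not tested beyond what each setting counts. Leaving out a PCT4961 library leaves the value of the other, as given in the report.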
